A study of Mus musculus with 199 samples.

Results

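The libraries described here came from propidium iodide (PI) stained cryosections of 46C mouse embryonic stem cells, whose lysates were either carried straight into amplification or frozen overnight first. They were chosen by their titles alone and numbered 42 of the 199 libraries in the deposited table and 42 of the 186 made from caps with 4 nuclear profiles (4NP). A total of 21 were PI-stained and not frozen (the unfrozen libraries) and 21 were PI-stained and frozen (the frozen libraries). Both groups shared the 46C line of strain 129/Ola, sections 220 nm thick, PI at 10 µg/ml for 10 min, 4 profiles in a cap, 4 h of lysis with proteinase K, the WGA4 amplification kit and 25 PCR cycles. Frozen libraries differed by a night at -20 °C after the proteinase K had been heat inactivated and before the library preparation mix was added. The line is a male embryonic stem cell line with a fluorescent reporter knocked in at Sox1, and nothing in the labels assigns libraries to separate cultures, so that p-values measure the spread between caps of what may be 1 preparation. The table holds libraries that had failed quality control, and every comparison is among such libraries.

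Genome architecture mapping (GAM) reads nuclear structure from thin slices. A slice cuts through part of a nucleus, and the chromatin that lies in it is extracted, amplified and sequenced, while the rest is left behind. Windows that are close along a chromosome therefore tend to enter a slice together, and a well-sampled library holds runs of consecutive positive windows rather than scattered ones. PI is a fluorescent dye that intercalates into DNA and RNA and makes nuclear profiles visible for laser microdissection. Because a window is scored only as called (1) or not called (0), the data show where DNA was recovered and carry no expression, and the cell type could not be checked against marker genes.

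Calls lay in shorter stretches in frozen than in unfrozen libraries. Mean run length, the mean number of consecutive called 40 kb windows, ranged in unfrozen libraries from 1 to 3.46 windows with a median of 1.69, and in frozen libraries from 1.01 to 2.32 with a median of 1.21. The groups overlapped over most of their ranges. Except for unfrozen replicates 7, 10 and 16 (3.46, 2.39 and 2.72 windows), which lay above the frozen range, and 19, which lay below it, each unfrozen library lay inside it, and frozen replicates 14 (2.32) and 17 (1.78) lay above the unfrozen median. The mean was 1.78 ± 0.614 windows in unfrozen and 1.30 ± 0.311 in frozen libraries (SD, n = 21 each). The difference of -0.47 ± 0.15 windows (SE) passed the threshold of 0.05 (two-sided permutation test, p = 0.00208, adjusted p = 0.00723 over 9 library measures), and the frozen library was the higher in 114 of 441 pairs.

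The share of a library's calls in runs of at least 5 windows (200 kb) showed the same direction with a larger ratio. It ranged from 0% to 58.3% in unfrozen libraries, median 14.03%, and from 0% to 33.8% in frozen libraries, median 1.29%. Means were 17.8% ± 16.9 and 4.91% ± 8.30 (SD, n = 21 each), a ratio of 3.62, and the difference of -12.8 ± 4.10 percentage points (SE) passed the test (permutation p = 0.00241, adjusted p = 0.00723). A total of 18 unfrozen and 16 frozen libraries had any run of that length. The neighbour excess, which is the percent of calls adjoining at least 1 other call, less the percent to be found if the same number of calls were scattered, moved with both: its median was 40.5 percentage points in unfrozen and 23.1 in frozen libraries (difference of means -15.8 ± 4.82 SE, permutation p = 0.00239, adjusted p = 0.00723). With windows merged to 200 kb the difference in neighbour excess was -6.12 percentage points and did not pass (adjusted permutation p = 0.323), while mean run length and the long run share still did (adjusted p = 0.0274 for each).

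**Figure D1:**
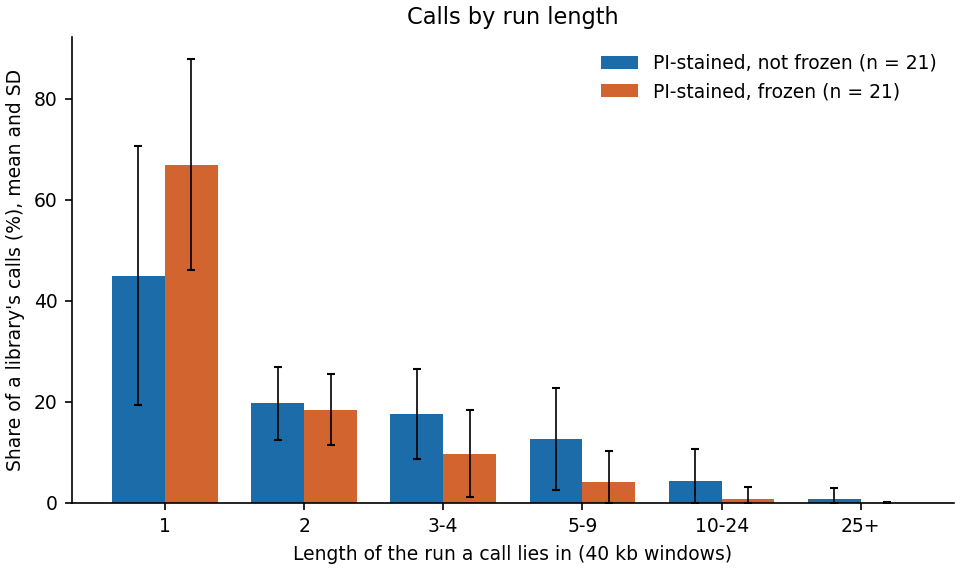
Share of a library's calls (vertical axis, percent, mean and SD over 21 libraries of each group, error bars cut at 0) by the length of the run of consecutive called 40 kb windows in which the call lies (horizontal axis). Isolated calls made up 45.0% of an unfrozen and 66.9% of a frozen library on average, and the share in runs of 5 windows or more was higher in unfrozen than in frozen libraries.

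Sorting calls by the length of their run placed the difference at both ends of the scale. Isolated windows, with no called neighbour, were 45.0% ± 25.6 of a library's calls without freezing and 66.9% ± 20.9 with it (SD, n = 21). Runs of exactly 2 windows took nearly equal shares, 19.7% ± 7.31 and 18.4% ± 7.04. From runs of 3 to 4 windows on, the unfrozen share was the higher in each length class, with 12.6% ± 10.1 against 4.08% ± 6.19 in runs of 5 to 9 windows. Runs of at least 25 windows (1 Mb) numbered 59 in 7 unfrozen libraries and 1 in a single frozen library. Pooled over libraries, 115853 calls formed 59273 runs in unfrozen libraries and 69499 calls formed 46056 runs in frozen libraries, or 1.96 and 1.51 calls per run. These shares restate the tested measures, so no further test was made on them.

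Some of the longest stretches are given here with the genes they cover. Coordinates are those of mm9 and genes those of GENCODE M1 overlapping the stretch. The longest run of the 42 libraries lay in unfrozen replicate 16 at chr1:95880001-99040000, 79 windows or 3.16 Mb with 10 protein-coding genes and a mean GC content of 37.7%. It held Pdcd1, which encodes an inhibitory receptor of T cells, St8sia4, a polysialyltransferase, and Slco6b1, Slco6c1 and Slco4c1, members of an organic anion transporter family. No other library had called more than 50% of that stretch.

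Unfrozen replicate 7 held a run of 55 windows at chr14:45160001-47360000 with 16 protein-coding genes, among them Bmp4, a growth factor that helps to keep stem cells undifferentiated. Unfrozen replicate 14 held 43 windows at chr16:3560001-5280000, a gene-dense stretch with 41 protein-coding genes and 45.8% GC that includes the histone acetyltransferase gene Crebbp. Long runs thus covered AT-rich and gene-poor as well as GC-rich and gene-dense sequence.

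Frozen libraries held shorter stretches of the same mixed kind. The longest was 27 windows (1.08 Mb) in frozen replicate 17 at chr19:36800001-37880000, with 12 protein-coding genes that include the homeobox gene Hhex, the retinoic acid hydroxylase genes Cyp26a1 and Cyp26c1, Ide, the insulin-degrading enzyme, and Kif11, a spindle motor. Next came 24 windows in frozen replicate 14 at chr13:33920001-34880000, with the tubulin genes Tubb2a and Tubb2b and the kinase gene Ripk1. That library also had a run of 18 windows at chr1:143040001-143760000 with no protein-coding gene. Frozen replicates 14 and 17 were those with the most calls of their group, 11535 and 10178.

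The difference was not limited to directly adjacent windows. Call persistence is the percent of called windows whose partner a given distance further on the same chromosome is also called, minus the coverage of the windows that can have such a partner. That coverage is taken over all chromosomes of a library together. Persistence therefore also holds any unevenness of calls between chromosomes, and the part of this in the differences was not tested. At 40 kb it was 29.2 ± 15.6 percentage points in unfrozen and 15.1 ± 9.94 in frozen libraries (SD, n = 21), and at 4000 kb it was 6.48 ± 5.01 and 3.01 ± 2.48. Between these, at 1000 kb, it was 12.9 ± 8.21 and 6.10 ± 4.73, with medians of 15.7 and 5.88. All 7 distances tested passed the threshold, with adjusted permutation p from 0.00277 to 0.00537.

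Relative to its own value at 40 kb, persistence fell over distance at much the same rate in both groups. At 400 kb it was 62.8% of the 40 kb value in unfrozen and 56.9% in frozen libraries, at 1000 kb 44.4% and 40.4%, and at 4000 kb 22.2% and 19.9%. The ratio of unfrozen to frozen means lay between 1.93 and 2.16 over the 7 distances. Whether the rate of fall itself differs between the groups was not tested.

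**Figure D2:**
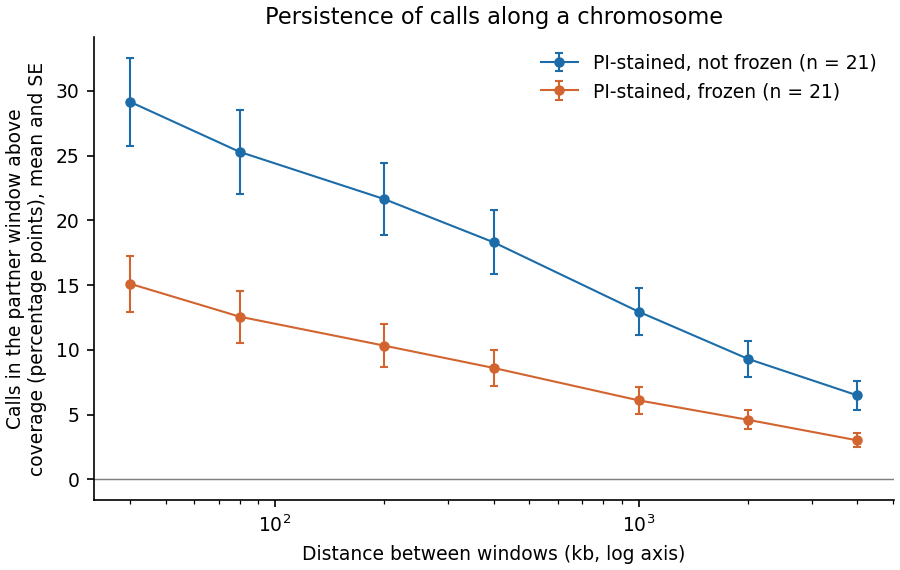
Call persistence (vertical axis, percentage points above coverage, mean and SE over 21 libraries of each group) against the distance between windows (horizontal axis, kb, log scale). The unfrozen mean lies above the frozen mean at each of the 7 distances, from 29.2 against 15.1 at 40 kb to 6.48 against 3.01 at 4000 kb.

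Contiguity went with the number of calls, which makes coverage the first quantity to set beside these results. Coverage, the percent of the 65983 windows of chromosomes 1 to 19 and X that were called, ranged in unfrozen libraries from 0.0258% to 26.8%, median 7.84%, and in frozen libraries from 0.112% to 17.5%, median 3.52%. The difference of means of -3.35 ± 1.77 percentage points (SE) did not pass after adjustment (permutation p = 0.0645, adjusted p = 0.129), although it passed without frozen replicate 14, the frozen library with the highest coverage (adjusted p = 0.0493). On log10 of the percent the difference was -0.17 (permutation p = 0.441, adjusted p = 0.458). In frozen libraries mean run length rose with coverage (Pearson r = 0.949, Spearman rho = 0.956, permutation p = 1e-05 for each, the smallest that 100000 resamples give, adjusted p = 5e-05 over 10 relations in r and rho, r = 0.946 without the 2 libraries farthest from the median coverage, n = 21). In unfrozen libraries r was 0.805 and rho was 0.741 (permutation p = 4e-05 and 0.00023, adjusted p = 0.00016 and 0.000767, n = 21), and r was 0.628 without the 2 farthest libraries. For the neighbour excess r was 0.818 in frozen and 0.454 in unfrozen libraries (permutation p = 1e-05 and 0.0398, adjusted p = 5e-05 and 0.0569, rho = 0.891 and 0.561), and the unfrozen r was 0.263 among the 19 unfrozen libraries with at least 100 calls. The rise of the neighbour excess in unfrozen libraries therefore rests in part on its 2 near-empty libraries, and r was 0.620 when the 2 libraries farthest from the median coverage were left out instead.

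**Figure D3:**
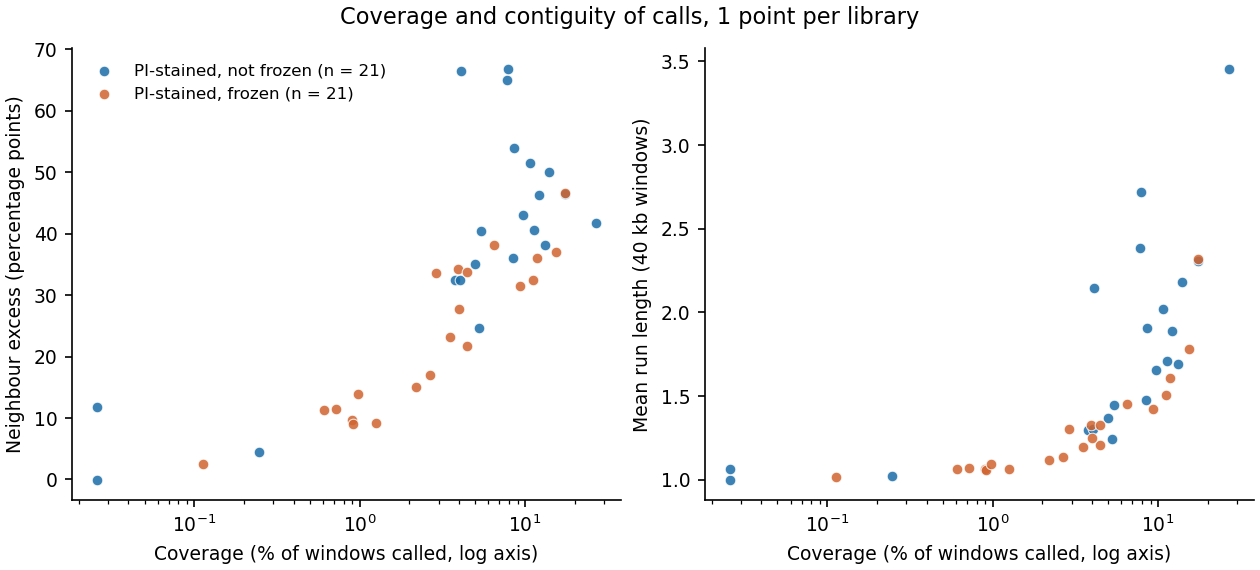
Neighbour excess in percentage points (left panel) and mean run length in 40 kb windows (right panel) against coverage (horizontal axes, percent of windows called, log scale), 1 point per library, 21 unfrozen and 21 frozen. Both measures are higher in libraries with more calls. The neighbour excess of unfrozen replicates 4, 8, 10, 14, 16 and 17 (50.0 to 66.8 points) lies above all frozen libraries, whose highest value is 46.7.

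With log10 coverage as a covariate, unfrozen libraries still had the longer runs. The adjusted difference was -0.39 windows for mean run length (Freedman-Lane permutation, adjusted p = 0.00268), -11.0 percentage points for the share in long runs (adjusted p = 0.00496) and -12.8 for the neighbour excess (adjusted p = 0.00024). Persistence passed at all 7 distances with the same covariate. On the log10 scale the groups differed in coverage by -0.17 (permutation p = 0.441). The untransformed percent was not used as a covariate, so how much of the difference in runs goes with it was not tested. When 1000 calls were drawn at random from each of the 32 libraries that had that many, mean run length was 1.09 ± 0.0452 windows in 18 unfrozen and 1.07 ± 0.0262 in 14 frozen libraries (SD), and the neighbour excess was 11.7 ± 6.06 and 10.2 ± 4.04 percentage points. Neither difference passed (permutation, adjusted p = 0.458 for each). The same 32 libraries with all their calls had 1.90 ± 0.574 against 1.43 ± 0.318 windows. Thinning kept a median of 17.8% of calls in unfrozen and 33.97% in frozen libraries, and the part of this in the thinned values was not tested. The table holds no read totals, so that fewer reads and less recovered DNA cannot be told apart.

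The plate bore on the comparison as well. Unfrozen libraries filled columns 4 to 6 and frozen libraries columns 7 to 9, so that column and freezing cannot be told apart. Mean run length was 2.098, 1.622 and 1.504 windows in columns 4, 5 and 6, and 1.302, 1.351 and 1.233 in columns 7, 8 and 9. The 3 unfrozen column means did not overlap the 3 frozen ones for mean run length, and with columns as the unit the exact permutation p was 0.1, the smallest that 3 against 3 can give. Plate rows held both groups. With row as a block, the difference in neighbour excess was -15.8 percentage points (permutation, adjusted p = 0.00609). Frozen libraries were lower on average in 6 of 8 rows, the exceptions being rows G and H. The 2 unfrozen libraries with 17 calls each lay in these rows, replicate 19 in G and replicate 20 in H. In row G the other unfrozen library lay above both frozen ones. In row H the other unfrozen library, replicate 21, had 24.57 points, below frozen replicates 20 and 21 (33.71 and 27.68). Row H therefore kept its direction with the 17-call library set aside, and the cause was not tested.

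**Figure D4:**
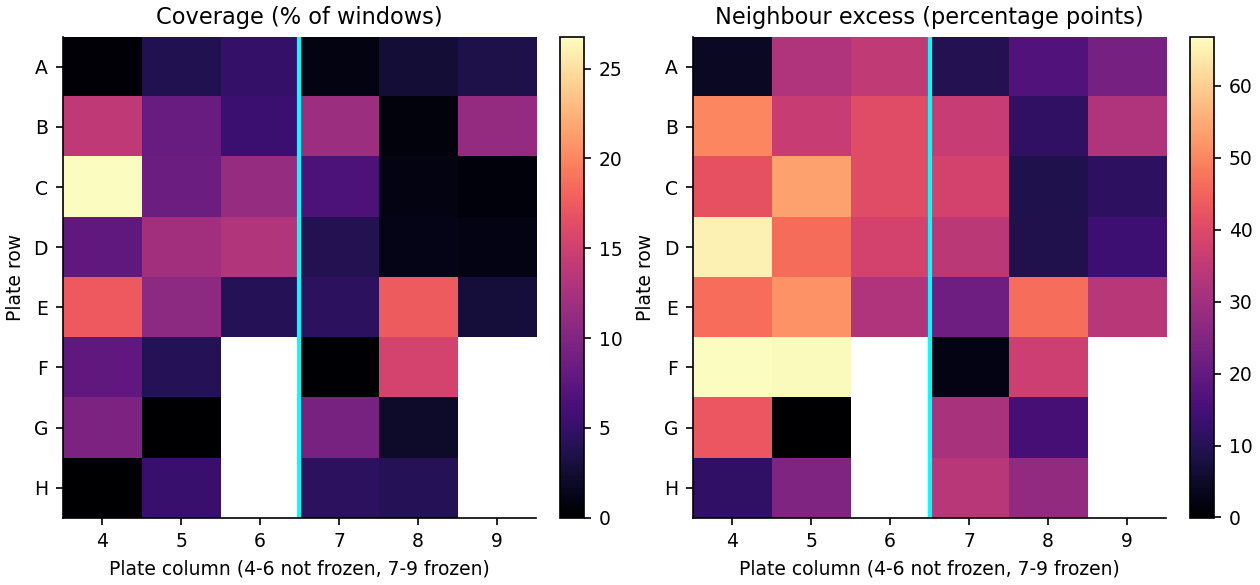
Plate map of coverage (left, percent of windows) and neighbour excess (right, percentage points), 1 cell per library, with plate rows A to H and columns 4 to 9. The vertical line separates unfrozen (columns 4 to 6) from frozen (columns 7 to 9) libraries, and blank cells hold no library of either group. Mean neighbour excess was 41.2, 38.9 and 37.3 points in columns 4 to 6 and 25.9, 21.6 and 22.9 in columns 7 to 9.

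Each library sampled chromosomes unevenly. Of the 39 libraries with at least 100 calls, 13 had an X chromosome coverage below 0.1 of the library's own coverage, 8 of 20 frozen and 5 of 19 unfrozen. No autosome was so depleted in more than 6 of the 39. The X of a male line is present once in each nucleus and each autosome in a pair. Unfrozen replicate 7, the library with the highest coverage (26.8%, Wilson 95% interval 26.4% to 27.1%), had called 22 of the 4167 X windows, while unfrozen replicate 13 had called 752 of them at a coverage of 17.4% (17.2% to 17.7%). Frozen replicate 9 had called 0 X windows, and frozen replicate 14 had called 863. A count of 0 would allow a share of up to 0.0720% if windows were independent, which adjacent windows are not. The X to autosome ratio thus ran from 0 to 1.20 in frozen libraries, median 0.360, and from 0.0185 to 1.98 in unfrozen libraries, median 0.428, and its mean did not differ beyond error between the groups (permutation p = 0.183, adjusted p = 0.236).

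Unfrozen replicates 16 and 17 concentrated their calls the most among libraries with at least 100. The autosome unevenness, the percent of autosomal calls that would have to be moved to match the autosomes' window numbers, was 48.3% and 52.3% in them, against a median of 25.6% in unfrozen and 24.6% in frozen libraries. Replicate 16 had called 34.2% of chromosome 1, and 8 of the 20 chromosomes had below 0.1 of its coverage. Replicate 17 had 9 such chromosomes, with 15.5% of chromosome 2 called. These were also the libraries with the highest neighbour excess, 66.8 and 66.5 percentage points, and X to autosome ratios of 1.41 and 1.87. Group means of unevenness were 28.97% ± 11.65 and 24.83% ± 5.286 (SD, n = 21 each), a difference that did not pass (permutation p = 0.148, adjusted p = 0.222). Among libraries with at least 100 calls it was -2.08 percentage points (adjusted permutation p = 0.462).

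**Figure D5:**
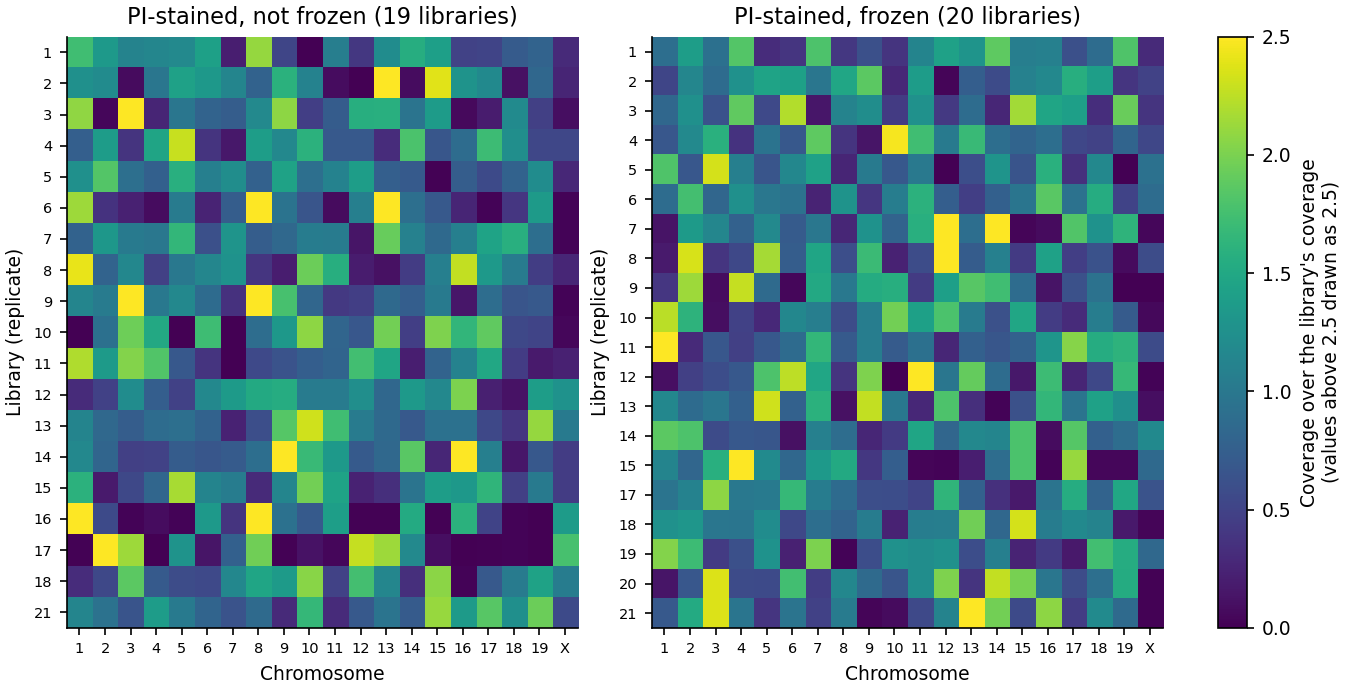
Coverage of each chromosome over the library's own coverage (colour, values above 2.5 drawn as 2.5), for the 19 unfrozen (left) and 20 frozen (right) libraries with at least 100 calls, 1 row per library. The X column is dark, below 0.1, in 5 unfrozen and 8 frozen libraries, and unfrozen rows 16 and 17 hold 8 and 9 such chromosomes.

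No single chromosome passed the test between groups. Coverage of 0 of 20 chromosomes differed after adjustment (percent called 0), and at an unadjusted p below 0.05 the unfrozen coverage was the higher on 3 chromosomes (15% of 20) and the frozen on 0. These were chromosome 8 with 10.5% ± 9.32 against 4.03% ± 4.86, chromosome 9 with 10.4% ± 9.51 against 3.59% ± 3.31 and chromosome 10 with 11.2% ± 10.5 against 4.31% ± 6.58 (SD, n = 21 each, adjusted permutation p = 0.0709, 0.051 and 0.0841). On log10(percent + 0.01) no chromosome reached the unadjusted level, the smallest permutation p being 0.0981 (adjusted p = 0.930). After division by the library's own coverage, 0 chromosomes passed adjustment, and at an unadjusted p below 0.05 there were 2 in each direction (10% each). Relative coverage of chromosome 7 was 0.690 ± 0.472 without and 1.15 ± 0.545 with freezing (adjusted permutation p = 0.0826), and that of chromosome 18 was 0.579 ± 0.487 and 0.981 ± 0.435 (adjusted permutation p = 0.0826). In the other direction, chromosome 10 had 1.38 ± 0.869 without and 0.794 ± 0.622 with freezing (adjusted permutation p = 0.108), and chromosome 8 had 1.29 ± 1.16 and 0.746 ± 0.434 (adjusted permutation p = 0.215).

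No single window passed the test between the groups after adjustment. A window was called in a median of 2 of 21 unfrozen and 1 of 21 frozen libraries. Unfrozen libraries together called 53643 windows (81.3%) and frozen libraries 42579 (64.5%), with 36512 called in both groups. The 6273 windows called in none of the 42 libraries averaged 32.04% undetermined bases, against 0.117% in the others. Among 4825 windows called in at least 6 libraries, 0 differed by Fisher's exact test after adjustment (percent called 0), the smallest adjusted p being 0.661. The few calls per window limited this test, since p could not fall below 0.0207 for a window called in 6 libraries or below 0.00132 for 9, and only 100 of the 4825 had 10 calls or more. A count of 0 therefore does not show that windows were called alike in both groups. At an unadjusted p below 0.05, 189 (3.92%) were called more often in unfrozen and 3 (0.0622%) in frozen libraries. In 1 Mb bins, 0 of 2548 passed, with 40 (1.57%) higher in unfrozen and 9 (0.353%) in frozen libraries at the unadjusted level. When a bin counted as called only with at least 5 called windows, 0 of 1407 passed, and 71 were higher in unfrozen and 0 in frozen libraries at that level. Unfrozen libraries held 115853 calls in total and frozen libraries 69499. The unadjusted counts do not take out this difference in totals.

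The windows at either end of that list were modest. The largest excess in unfrozen libraries was 9 libraries. It was 9 against 0 at chr1:138520001-138560000, which overlaps Zfp281, a zinc finger gene known from stem cell regulation, and at chr17:30800001-30840000 in Dnahc8, an axonemal dynein gene (Fisher's exact p = 0.00132, adjusted p = 0.661 for each), and 15 against 6 at chr9:35080001-35120000, which overlaps Rpusd4 (Fisher's exact p = 0.0126, adjusted p = 0.661). The largest excess in frozen libraries was 6 libraries. It was 6 against 0 at chr2:146000001-146040000, which overlaps 4930529M08Rik, and at chr5:127640001-127680000, with no annotated gene (Fisher's exact p = 0.0207, adjusted p = 0.661 for each), and 7 against 1 at chr18:77800001-77840000 in Rnf165 (Fisher's exact p = 0.0448, adjusted p = 0.95).

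The windows called most often were called in both groups. At chr2:98480001-98520000, which overlaps the predicted genes Gm10800 and Gm10801, 18 of 21 unfrozen and 20 of 21 frozen libraries had a call. The window at chr11:3040001-3080000, at the centromeric end and in Sfi1, had 19 and 15, and chr6:103560001-103600000 in Chl1, a neural adhesion gene, had 17 and 13. Each of these 3 windows was also called in 101, 64 and 72 of the other 144 4NP libraries of the series and in 2 of 11 water controls.

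Windows with the start of a pluripotency gene gave counts in the range of other windows. Of 14 listed genes 13 could be placed, and their start windows were called in 0 to 3 unfrozen libraries, median 2, and 0 to 4 frozen ones, median 1, against medians of 2 and 1 over all windows with a protein-coding start. Nanog, a core pluripotency factor, was called in 3 unfrozen and 1 frozen libraries, Sox2 in 2 and 2, and Pou5f1, which encodes Oct4, in 1 and 2. The orphan receptor gene Nr5a2 had 3 and 4, and Tdgf1, a co-receptor of Nodal signalling, had 3 and 0. In total 6 of the 13 were called in more unfrozen and 4 in more frozen libraries. The higher unfrozen count held for 46.2% of the 13 and for 54.1% of all windows with at most 50% undetermined bases.

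The other lists were likewise described by counts. Of all 63918 windows, 34568 (54.1%) were called in more unfrozen and 13426 in more frozen libraries. Among 10 housekeeping genes, 6 (60%) had more unfrozen and 1 more frozen libraries. The exception was Actb, cytoplasmic actin, with 3 and 4, while Gapdh, the glycolytic dehydrogenase, had 3 and 1. Among 8 genes at the ends of the Hox clusters, which pattern the body axis, 5 (62.5%) had more unfrozen and 2 more frozen libraries, with 4 and 0 at Hoxc13 and 2 and 3 at Hoxb13. Of 12 placed long neuronal genes, which lie in AT-rich sequence, 7 (58.3%) had more unfrozen and 2 more frozen libraries, with 1 and 0 at Dmd, the dystrophin gene. The unfrozen shares of these 3 lists lay near that of all windows. Both globin genes were called in frozen libraries only, Hbb-b1 in 3 and Hba-a1 in 2 of 21, where 9.195% of all windows were called in frozen libraries only and 25.96% in unfrozen libraries only. No test was run on these lists.

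In both groups calls favoured GC-rich and gene-rich windows, and the groups did not differ beyond error. Called autosomal windows exceeded the average of all autosomal windows in GC content by a median of 0.426 percentage points in unfrozen and 0.634 in frozen libraries, with a shift above 0 in 19 and 20 of 21 libraries (difference of means 0.126 ± 0.162 SE, permutation p = 0.458, adjusted p = 0.458). That difference was 0.235 without unfrozen replicate 19, which had 17 calls, and 0.0749 without unfrozen replicate 16, and passed in neither case. From the poorest to the richest of 5 equal GC classes, coverage over the library's autosomal coverage rose from 0.804 ± 0.166 to 1.19 ± 0.323 in unfrozen and from 0.772 ± 0.135 to 1.24 ± 0.157 in frozen libraries (SD, n = 21). Windows with the start of a protein-coding gene were 24.5% of autosomal windows, and their share among calls was higher by a median of 3.17 percentage points in unfrozen and 5.39 in frozen libraries (difference of means 1.16 ± 1.05 SE, adjusted permutation p = 0.315). It was 1.74 without unfrozen replicate 19 (adjusted permutation p = 0.0936), and the difference of medians was 2.23 (adjusted permutation p = 0.0783). The 9 water controls with under 1% coverage had a mean relative coverage of 0.654 in the poorest GC class, 1.32 in the richest and 1.17 at protein-coding starts. Windows in the first 10 Mb, the centromeric end of mouse chromosomes, were over-represented among calls in 14 of 21 unfrozen and 6 of 21 frozen libraries. That difference of -0.801 ± 0.434 percentage points (SE) did not pass (permutation p = 0.0717, adjusted p = 0.129), but the difference of medians did (-1.07, adjusted permutation p = 0.0256), as did the means without unfrozen replicate 10 (adjusted p = 0.0447). It was -0.0351 over the first 5 Mb (adjusted permutation p = 0.837) and -0.443 without windows called in any water control (adjusted permutation p = 0.547).

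Libraries of a group did not share windows more than libraries of different groups. The phi coefficient of calls between 2 libraries averaged 0.00858 within unfrozen, 0.00678 within frozen and 0.00720 between groups, and within minus between was 0.000474 (permutation p = 0.479, 861 pairs of 42 libraries).

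Controls with few calls had short runs, and so did stained libraries with few calls. Mean run length was 1.025 windows in unfrozen replicate 1 with 162 calls and 1.014 in frozen replicate 16 with 74. The single unstained library of the plate had 26 calls in runs of 1 window. Of 11 water controls in the series, none of them on this plate, 9 had 35 to 314 calls and mean run lengths from 1 to 1.09 windows, with 0% of calls in runs of at least 5 windows. The other 2 had 13860 and 14094 calls, longest runs of 42 and 59 windows (1.68 and 2.36 Mb, above the longest frozen run) and mean run lengths of 2.40 and 2.82 windows, above the highest frozen value of 2.32, and 43.4% and 47.5% of their calls lay in runs of at least 5 windows. Long runs therefore also occurred where the labels name no cells. With every window called in any water control removed, frozen libraries were lower, with a difference of -16.0 percentage points in neighbour excess (adjusted permutation p = 0.00432) and of -0.29 windows in mean run length (adjusted permutation p = 0.00437). The difference in the long run share was then -7.72 percentage points (adjusted permutation p = 0.00579), against -12.8 with all windows. This step took out 25252 of the 65983 windows, and a removed window ends a run, so runs were shortened by construction. It leaves in place any contaminating call in a window that no water control had called, and such calls were not tested.

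Freezing at the same step was also applied to unstained profiles in a small experiment of the series, with 2 unfrozen and 3 frozen libraries on another plate. Mean run lengths were 1.97 and 1.06 windows in the unfrozen and 1.198, 1.245 and 1.098 in the frozen libraries, with 8651 and 17 and with 1572, 239 and 815 calls. The groups overlapped, and with so few libraries whether the difference varies with the stain was not tested.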

How the data were processed

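The table deposited by the authors gave each library a column and each 40 kb window a row, holding 1 where the window was positive and 0 elsewhere. Per the labels and the study's methods, reads were aligned to mm9 with Bowtie2 (2.1 in the labels), duplicates were removed with Samtools, and GAMtools called a window positive at a fixed threshold of 4 reads. Depth is therefore unknown, and Wilson intervals leave out the dependence between adjacent windows and describe counting error alone. Of 68162 rows, 65983 (chromosomes 1 to 19 and X) were used. All 20 chromosome lengths equalled those of NCBIM37, and genes are those of GENCODE M1. All 199 columns matched 1 sample.

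The 9 library measures, 7 distances and 20 chromosomes were compared with two-sided permutation tests of the difference in means (100000 resamples, seed 1; 10000 for library pairs) and Benjamini-Hochberg adjustment within each family at 0.05. Windows and 1 Mb bins with calls in at least 6 of 42 libraries were compared with Fisher's exact test. Phi is Pearson's r of 2 libraries' calls. Measures and tests were checked on simulated data. Groups followed the titles. Named windows were the 6 called most often and the 6 with the largest excess in each group, at most 1 per Mb, of which the leading ones are printed, as are some of the longest runs, chosen after their values were seen; a few are not reported here. Tools were Python 3.11.15, numpy 2.4.6, pandas 2.3.3 and SciPy 1.17.1. The libraries, measures and gene lists were chosen with earlier results of these data known. Alternatives covered windows, libraries, resolution, summary, plate position, coverage and leaving out each library.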

Additional observations from a re-analysis of the deposited data

Results flagged for a closer look

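The mitochondrial genome and the Y chromosome lie outside the windows compared above and carried calls in more libraries than in water controls. The single mitochondrial window was called in 38 of the 42 libraries, 18 of 21 unfrozen and 20 of 21 frozen, and in 5 of 11 water controls. At least 1 of the 398 Y windows was called in 24 of the 42 libraries, 14 unfrozen and 10 frozen, and in 2 of 11 water controls. Mean Y coverage was 1.58% in unfrozen and 0.826% in frozen libraries, and the highest value in a water control was 2.76%. The causes were not tested.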

How the results depend on the processing

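The lower contiguity of frozen libraries held in direction under every alternative run. The neighbour excess no longer passed in 200 kb windows (-6.12 percentage points, adjusted p = 0.323), when a call up to 2 windows away counted as a neighbour (-11.2, adjusted p = 0.0769), after thinning to 1000 calls (-1.50, with -0.0115 windows in mean run length, which removes a larger share of calls from unfrozen libraries), or with 3 plate columns against 3, a unit that cannot pass (-15.7, with -0.446 windows in mean run length and -12.0 percentage points in long run share, exact permutation p = 0.1 for each). Without each library in turn, all 3 passed in 42 of 42 fits. Leaving out 1 library moved the coverage difference between -3.97 (without frozen replicate 14, where it passed) and -2.42 percentage points (without unfrozen replicate 7). Leaving out 1 library moved the centromere end difference between -0.980 (without unfrozen replicate 10, where it passed) and -0.676 (without unfrozen replicate 15), and its difference of medians was -1.07. It shrank to -0.0351 over the first 5 Mb in place of 10 Mb (adjusted p = 0.837) and to -0.443 without windows called in any water control (adjusted p = 0.547). As differences of medians, autosome unevenness was -0.983 percentage points and the X to autosome ratio -0.0679, and neither passed. The causes of these shifts were not tested. Persistence passed at 7 of 7 distances in each of 4 alternatives, and counts of windows, bins and chromosomes past the threshold stayed at 0.

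Alternatives added after seeing the data left out unfrozen replicates 7 and 16, which held the longest runs, kept libraries of at least 1000 calls unthinned, or used log10 coverage as a covariate for persistence. They changed no call. The X to autosome ratio has no value on autosomes only. No paired analysis was possible because replicate numbers were given in accession order and only name libraries, so that they pair nothing. Plate row, which the groups share, served as a block instead and changed no call.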
